A study of Mus musculus with 33 samples.

Results

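Undifferentiated cells of the deletion clone ΔK9.1 were compared with the wild-type line E14Tg2a from which it was made, in 3 libraries of each line, 6 of the 33 libraries of the series. E14Tg2a is a mouse embryonic stem cell line, grown here on gelatine in serum with LIF, the cytokine that keeps such cells undifferentiated. In ΔK9.1 both alleles lack a stretch of DNA between the *Nanog* enhancer and the *Nanog* promoter that carries the repressive histone mark H3K9me3 in wild-type cells, removed by CRISPR/Cas9. The clone ΔK9.2, made in the same way and collected on the same day of culture (day 0), was used as the third line (3 libraries), because a difference that is found in 1 clone and not in the other cannot be told apart from a property of that clone. Each deletion line is 1 clone, and its replicates come from 3 independent assays of that clone, so the spread between replicates does not cover the spread between clones. All libraries compared here came from the same culture medium with no treatment. The clones differ from E14Tg2a in their history as well as in the deletion, since they were transfected with Cas9 and guide vectors, selected with puromycin, sorted for mCherry and expanded from single colonies, and these steps cannot be told apart from the deletion.

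Embryonic stem cells in serum and LIF keep a network of transcription factors active, of which NANOG, OCT4 (the product of *Pou5f1*) and SOX2 are the core and KLF2, KLF4, ESRRB and GBX2 belong to the naive part that LIF and WNT signals maintain. FGF signals through ERK push the cells towards differentiation and switch on their own feedback genes, such as *Spry2* and *Dusp6*. H3K9me3 is laid down by enzymes such as SETDB1, which KRAB zinc finger proteins recruit through TRIM28, and it silences germline genes, imprinted copies and repeats.

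The lines carried the markers of embryonic stem cells. All 13 core and all 15 naive pluripotency genes listed had a mean of at least 1 TPM (a level scaled for transcript length and for the total of the library) in each line. The first principal component of the 9 libraries held 31.5% of the variance and placed the ΔK9.1 libraries between 25 and 36, the E14Tg2a libraries between -24.9 and -18.6 and the ΔK9.2 libraries between -19.6 and 0.3. The second, with 21.6%, moved with the replicate number, from 15.4 to 26.2 in the libraries of replicate 1 and from -31.8 to -10.3 in those of replicate 3. The summed level of the 16 primitive endoderm markers was between 204 and 265 TPM in ΔK9.1, between 225 and 965 TPM in E14Tg2a and between 211 and 529 TPM in ΔK9.2, and the highest value in each line was that of replicate 1.

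*Nanog*, next to the deleted stretch, was read at 456, 460 and 486 TPM in ΔK9.1, at 326, 338 and 368 TPM in E14Tg2a and at 412, 439 and 426 TPM in ΔK9.2. All libraries of ΔK9.1 were above those of both other lines. The log2 difference from E14Tg2a was 0.44 (standard error 0.07, adjusted p = 0.0042, limma) and that from ΔK9.2 was 0.14 (standard error 0.07, adjusted p = 0.29). The two-sided exact permutation test on 3 against 3 libraries gave p = 0.1, the smallest it can give, for each pair of lines. After each library was rescaled by the median ratio the difference was 0.35 with an adjusted p of 0.06, and in a fit of all 33 libraries it was 0.44 with an adjusted p of 0.29. The deleted stretch lies between the enhancer and the *Nanog* promoter, and so the promoter is shown, as the 250 bases before the start site in RefSeq (GRCm38.p6, chr6:122707239-122707488, plus strand) with the core of the octamer motif that OCT4 binds in capitals, from 75 to 69 bases before the start site.
Nanog: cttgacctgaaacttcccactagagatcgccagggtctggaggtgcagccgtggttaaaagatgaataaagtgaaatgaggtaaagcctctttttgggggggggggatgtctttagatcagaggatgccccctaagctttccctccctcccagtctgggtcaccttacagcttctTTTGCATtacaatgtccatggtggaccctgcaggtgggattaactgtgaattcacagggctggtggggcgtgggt
The letters searched were ATGCAAA on either strand, which read TTTGCAT in this window, and 1096 of 27025 genes with a promoter window, or 4.06%, held them.

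Of 14504 genes tested, 1445 (9.96%) were higher in ΔK9.1 than in E14Tg2a and 708 (4.88%) were lower, where a call needs an adjusted p under 0.05 and a log2 difference above 0.3 in size. In ΔK9.2 only 1 gene was called higher and 11 were called lower than in E14Tg2a, and those 11 were lower in both clones. This small count in ΔK9.2 depended on the fit and on 1 library: it was 88 higher and 86 lower with the replicate number as a block, of which 68 and 77 were called in the same direction in ΔK9.1, and 48 higher and 63 lower without E14Tg2a replicate 1. Among the genes called higher in ΔK9.1 the median log2 difference was 0.64 in ΔK9.1, beside 0.24 in ΔK9.2, and among the genes called lower it was -0.65 and -0.20. Both clones share the E14Tg2a libraries in these values. At the same thresholds the study, by DESeq2 on read counts, reported far more genes changed in both clones than any of these fits. Higher calls made up 67.1% of the calls, but the split moved to 1124 higher and 1141 lower once each library was rescaled by the median ratio, which shifted the median of all genes from 0.07 to -0.01. Blocking on the replicate number, since same-numbered libraries deviated together, called 2421 genes higher and 1251 lower in ΔK9.1. The counts rested on each line's libraries: 733 were higher and 394 lower without E14Tg2a replicate 2, 650 and 394 without E14Tg2a replicate 3, 698 and 428 without ΔK9.1 replicate 1, 513 and 283 without ΔK9.1 replicate 2, and 877 and 407 without ΔK9.1 replicate 3.

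The difference between ΔK9.1 and E14Tg2a moved with the base composition of the transcript. Over 5 equal groups of the tested genes by GC content, with medians of 41.3, 46.2, 50, 53.8 and 58.1% GC, the median log2 difference of ΔK9.1 from E14Tg2a was 0.00, 0.03, 0.07, 0.11 and 0.16, whereas that of ΔK9.2 was 0.03, 0.03, 0.05, 0.06 and 0.08. The genes called higher had a median GC content of 52.6% and those called lower of 47.5%, against 50% for all tested genes. The part of this in the results was not tested beyond a correction of each library for GC content, chosen after the data were seen, which gave 1107 genes higher and 1108 lower.

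**Figure D1:**
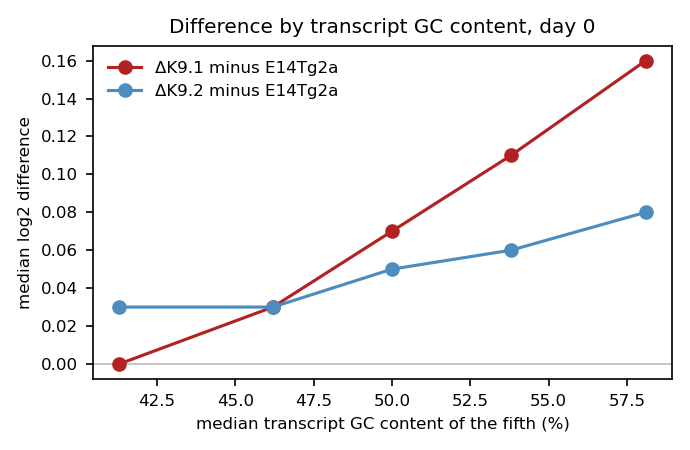
Median log2 difference from E14Tg2a (vertical axis) of the tested genes in each of 5 equal groups by transcript GC content (horizontal axis, median GC content in %) for ΔK9.1 and ΔK9.2 on day 0. The ΔK9.1 line climbs from 0.00 to 0.16 and the ΔK9.2 line from 0.03 to 0.08.

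Of the 12 genes that rose most in ΔK9.1 against E14Tg2a by the rule for named genes, 7 are described here, and 4 of them lie on the X chromosome. The rest of the 12 are among the genes of ΔK9.1 alone described below, and none of those lies on the X chromosome. Over the whole X chromosome 35 of 500 tested genes were called higher (7%, beside 9.96% of all genes), and in ΔK9.1 alone 2 were higher and 9 lower, where the shares of all genes were 0.951% and 0.752%. *Rhox5*, a homeobox gene of the placenta and testis, was at 315, 392 and 405 TPM in ΔK9.1, at 126, 29.2 and 29.4 TPM in E14Tg2a and at 67.1, 189 and 172 TPM in ΔK9.2. The ΔK9.1 libraries lay above all others, and the other lines overlapped each other. Its log2 difference from E14Tg2a was 2.92 (standard error 0.54, adjusted p = 0.0092, limma) and that from ΔK9.2 was 1.5 (adjusted p = 0.17). *Klhl13*, an adaptor of a ubiquitin ligase that acts in cell division, rose by 2.10, *Stard8* by 1.70 and *Glod5* by 1.69 on the log2 scale, and these 3 also lie on the X chromosome. *Naaa*, a lysosomal amidase, rose by 2.32, *Zfr2* by 1.95 and *Smim22* by 1.77. In the fit without the replicate block none of these 7 genes differed from ΔK9.2 by the test, with adjusted p between 0.05 and 0.31 (limma). The call of *Klhl13* was lost without E14Tg2a replicate 2 or 3 or ΔK9.1 replicate 2 or 3 (adjusted p between 0.054 and 0.063), and that of *Stard8* without any of these or ΔK9.1 replicate 1 (adjusted p between 0.052 and 0.093).

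Genes that fell most against E14Tg2a were of several kinds. *H19*, an imprinted non-coding RNA, was at 10.1, 1.39 and 1.32 TPM in ΔK9.1 and at 71.5, 12.6 and 12.4 TPM in E14Tg2a, and in both lines replicate 1 was the highest. In ΔK9.2 it was at 30.4, 16 and 24.7 TPM. *Rpph1*, the RNA of RNase P, was listed at 0 in every ΔK9.1 library and at 1.30, 11.8 and 7.02 TPM in E14Tg2a, but it was also at 0, 0 and 0.763 TPM in ΔK9.2. *Mettl3*, which codes for the enzyme that places N6-methyladenosine on RNA, was at 8.32, 6.80 and 7.54 TPM against 20.5, 30.9 and 31.7 TPM, a log2 difference of -1.73 (standard error 0.21, adjusted p = 0.0023, limma). It was between 11.3 and 18.8 TPM in ΔK9.2, so the 3 lines did not overlap. *Rpph1*, *Mettl3*, *Rnf17* and the T cell receptor segment *Trav5-2* lie on chromosome 14 between 50 and 80 Mb.

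That segment of chromosome 14 was lower in both clones. Of its 236 tested genes 119 (50.4%) were called lower in ΔK9.1 and 4 higher, beside 4.88% and 9.96% of all genes. The 119 were 16.8% of all lower calls, and 219 genes of the segment lay below the median of all genes. The median log2 difference relative to all genes was -0.66 in ΔK9.1, beside -0.56 in ΔK9.2, and the median of the direct difference between the clones was -0.11. The ΔK9.1 libraries were at -0.69, -0.66 and -0.65 and the ΔK9.2 libraries at -0.65, -0.49 and -0.56, whereas those of E14Tg2a were at -0.18, 0.09 and 0.09, with replicate 1 the lowest. Among genes with at least 5 TPM it was -0.74 in ΔK9.1. Of the 221 windows of 10 Mb with at least 20 tested genes, only the 3 windows of this segment, one on chromosome 13 between 20 and 30 Mb (-0.44 in ΔK9.1, beside -0.18 in ΔK9.2, a window that holds the large histone cluster) and one on chromosome 17 between 60 and 70 Mb (0.35 and 0.19) passed 0.3 in size. Outside the chromosome 14 segment 589 genes were called lower in ΔK9.1.

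ΔK9.1 differed from both other lines at 247 genes, 11.5% of the genes called against E14Tg2a. Of these 138 (0.951% of the tested genes) were called higher than in E14Tg2a and than in ΔK9.2 and not called in ΔK9.2 against E14Tg2a, and 109 (0.752%) were called lower by the same rule. For the other 1895 genes called in ΔK9.1 and not in both clones, the clones were not shown to differ in this fit, which has no replicate block. In the direct comparison of the clones, 145 genes were higher and 130 lower in ΔK9.1, and with the block 865 and 680 were. The number of genes of ΔK9.1 alone depended strongly on the libraries and on the fit. With the replicate block it was 738 higher and 496 lower, of which 133 and 108 were among the genes called without it. It was 242 and 116 without E14Tg2a replicate 1, 27 and 31 without E14Tg2a replicate 2, 91 and 65 without E14Tg2a replicate 3, 11 and 46 without ΔK9.1 replicate 1, 0 and 0 without ΔK9.1 replicate 2, 1 and 1 without ΔK9.1 replicate 3, 0 and 0 without ΔK9.2 replicate 1, 1 and 2 without ΔK9.2 replicate 2, and 14 and 22 without ΔK9.2 replicate 3. A gene in this set is therefore described by its libraries first. The rule asks only that ΔK9.2 was not called against E14Tg2a, so ΔK9.2 may have moved the same way. The median log2 difference of ΔK9.2 from E14Tg2a was 0.18 over the higher genes of the set and 0.03 over the lower ones.

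The genes higher in ΔK9.1 alone came from many functions. *S100a1*, which codes for a calcium-binding protein, was at 31, 31.6 and 26.1 TPM in ΔK9.1, at 9.40, 7.48 and 8.87 TPM in E14Tg2a and at 8.92, 11.1 and 11.2 TPM in ΔK9.2. Its log2 difference was 1.67 from E14Tg2a (standard error 0.13, adjusted p = 0.00097, limma) and 1.42 from ΔK9.2 (standard error 0.13, adjusted p = 0.008). Its neighbour and relative *S100a13* on chromosome 3 was at 20.9, 21.2 and 18.9 TPM, against 6.60, 4.93 and 4.59 TPM in E14Tg2a and 6.05, 7.91 and 9.02 TPM in ΔK9.2. *S100a1* spans chr3:90511034-90514392 and *S100a13* starts just past it, at 90514435 (mm10), and in both the ΔK9.1 libraries stood apart while the other lines overlapped.

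*Cbr3*, a carbonyl reductase, was at 63.2, 78.1 and 80 TPM in ΔK9.1, at 22.1, 15.3 and 18 TPM in E14Tg2a and at 18.6, 39.8 and 37.2 TPM in ΔK9.2, with log2 differences of 1.95 (adjusted p = 0.003) and 1.25 (adjusted p = 0.046, limma). *Kif26a*, an unusual kinesin that damps growth factor signalling, was at 32.1, 28 and 26.3 TPM, against 7.52, 7.08 and 4.86 TPM in E14Tg2a and 11, 14.5 and 10.6 TPM in ΔK9.2. *A4galt*, which makes the glycolipid Gb3, was at 23.5, 24.3 and 22.8 TPM, against 7, 6.21 and 6.25 TPM in E14Tg2a and 6.81, 12.6 and 11.8 TPM in ΔK9.2. Each of the 3 genes was higher in every ΔK9.1 library than in any library of the other lines. For *Kif26a* the ΔK9.2 libraries also lay above all those of E14Tg2a. *Hey1*, a target of Notch, was at 7.67, 7.06 and 5.67 TPM in ΔK9.1, at 2.64, 1.78 and 1.15 TPM in E14Tg2a and at 2.51, 3.48 and 2.34 TPM in ΔK9.2. The others named by the same rule were *Kctd19*, a meiosis gene, with log2 differences of 1.89 from E14Tg2a and 1.49 from ΔK9.2, *C1ql1*, a secreted synaptic protein, with 1.60 and 1.14, *Radil*, an effector of the GTPase RAP1 in adhesion, with 1.54 and 1.13, and *Tmem151a* with 1.5 and 1.08.

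*Myc*, the growth regulator and a target of LIF and ERK signals, was lower in ΔK9.1 alone. It was at 6.57, 7.08 and 6.41 TPM in ΔK9.1, at 23.8, 19.6 and 19 TPM in E14Tg2a and at 17.1, 18.5 and 14 TPM in ΔK9.2. The log2 difference was -1.5 from E14Tg2a (standard error 0.13, adjusted p = 0.001, limma) and -1.18 from ΔK9.2 (standard error 0.13, adjusted p = 0.012). *Gbx2*, a naive pluripotency factor downstream of LIF, was at 12, 10.2 and 10.6 TPM, against 43.6, 40.9 and 38.5 TPM in E14Tg2a and 30.7, 23.6 and 17.7 TPM in ΔK9.2. Here the 3 lines were ordered without overlap, and ΔK9.1 was the lowest.

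*Emp1*, a membrane protein of epithelia, was at 10.6, 9.23 and 8.52 TPM in ΔK9.1, at 24.1, 36.5 and 34.7 TPM in E14Tg2a and at 25.3, 22.4 and 16.5 TPM in ΔK9.2. *Inhbb*, which codes for the beta B subunit of activin and inhibin, was at 20.5, 15.1 and 13.9 TPM, against 36.2, 51 and 40.2 TPM and 45.7, 40.4 and 25.6 TPM. Both were below every library of the other lines. A pair of germline genes belonged to this set. *Hormad1*, a protein of the meiotic chromosome axis, was at 10.4, 5.48 and 6.53 TPM in ΔK9.1, at 20.3, 17.1 and 23.2 TPM in E14Tg2a and at 29, 17.5 and 25.5 TPM in ΔK9.2, and *Rnf17*, a Tudor domain protein of the male germline that lies in the chromosome 14 segment, differed by -1.65 from E14Tg2a and -1.27 from ΔK9.2.

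**Figure D2:**
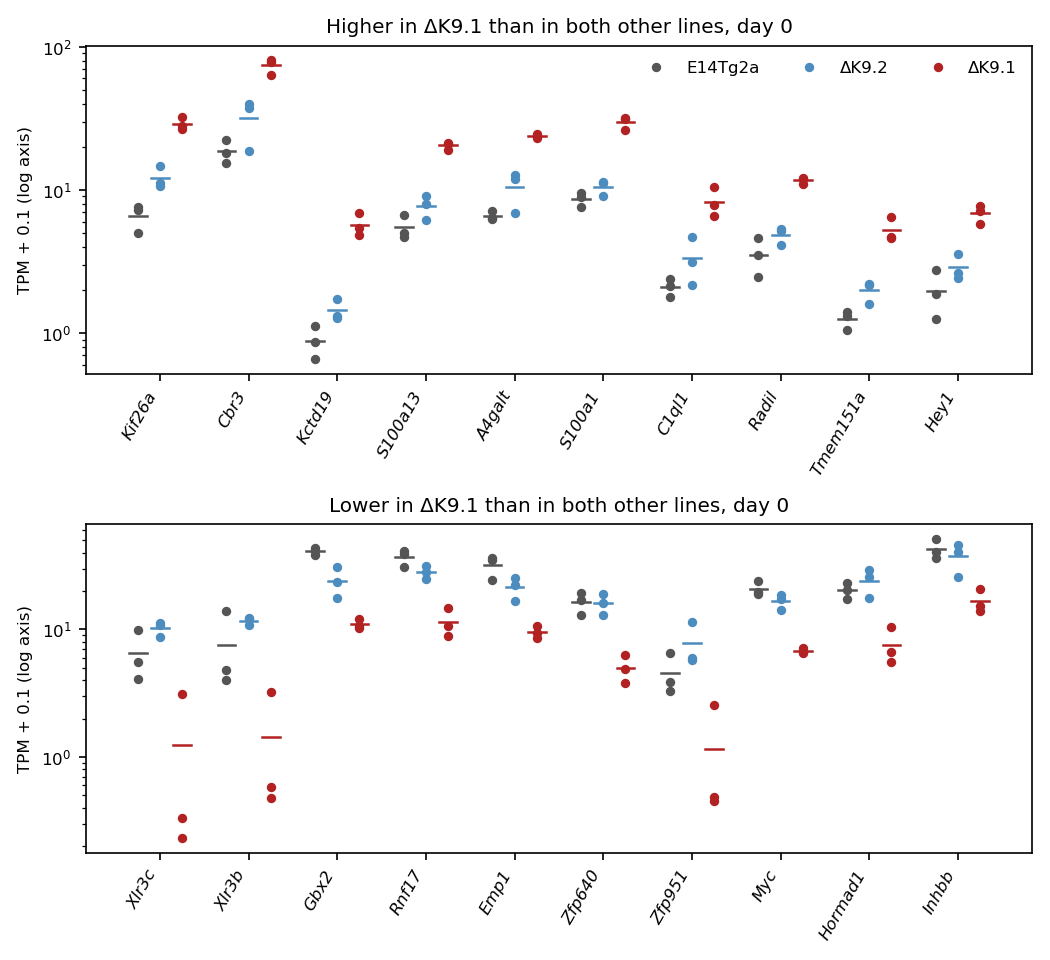
Levels on day 0 (TPM + 0.1, log axis) of the 10 genes with the largest higher calls and the 10 with the largest lower calls in ΔK9.1 alone, one point per library and a bar at the mean of 3 libraries, in E14Tg2a, ΔK9.2 and ΔK9.1. For *Myc* the ΔK9.1 libraries lie between 6.41 and 7.08 TPM and all others between 14 and 23.8 TPM.

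Genes of the X-linked *Xlr* family, relatives of the synaptonemal complex protein SYCP3, included 5 of 9 tested that were lower in ΔK9.1 alone, beside 0.752% of all genes. The family is not one of the gene lists and was looked at after the values of *Xlr3b* and *Xlr3c* were seen, so its share is not a test. *Xlr4b*, *Xlr4c*, *Xlr5a*, *Xlr5b* and *Xlr5c* had means under 1 TPM in ΔK9.1 and were tested only through the other lines. The genes *Xlr3b*, *Xlr3c*, *Xlr5a*, *Xlr5b* and *Xlr5c* were called lower than in E14Tg2a and than in ΔK9.2 and none was called higher, while *Xlr3a*, *Xlr4a*, *Xlr4b* and *Xlr4c* were not called against E14Tg2a, with log2 differences of -1.39, -0.26, -1.05 and -0.76 (adjusted p between 0.12 and 0.74, limma). All 9 had a mean log2 level in ΔK9.2 above that in E14Tg2a, by 0.64 to 1.43. *Xlr3c* was at 3.04, 0.132 and 0.232 TPM in ΔK9.1, at 9.81, 5.44 and 4.00 TPM in E14Tg2a and at 8.65, 11.1 and 10.7 TPM in ΔK9.2, and *Xlr3b* was at 3.12, 0.373 and 0.486 TPM, 13.8, 3.95 and 4.68 TPM, and 12.1, 12 and 10.8 TPM. In ΔK9.1 both were lower in replicates 2 and 3 than in replicate 1. *Xlr5a*, *Xlr5b* and *Xlr5c*, singled out after their values were seen, had log2 differences from E14Tg2a of -1.32, -1.27 and -1.06. The genes are related to each other and the annotations of *Xlr5a* disagree: its GENCODE M21 span runs over the other 4 called genes, whereas its RefSeq start site, on the minus strand, lies at lower coordinates than all 4, so the way the counting shared reads among them leaves each single value uncertain. The pairs *Xlr3b* with *Xlr3c* and *Xlr5a* with *Xlr5b* are shown by their promoters, the only 2 of the 10 pairs among the 5 genes that matched closely there, as the 250 bases before the start site in RefSeq (GRCm38.p6), with the bases that differ within a pair in capitals. The pairs lie at chrX:73191929-73192178 (*Xlr3b*, plus strand), chrX:73265391-73265640 (*Xlr3c*, minus strand), chrX:73117703-73117952 (*Xlr5a*, minus strand) and chrX:73148591-73148840 (*Xlr5b*, plus strand).
Xlr3b: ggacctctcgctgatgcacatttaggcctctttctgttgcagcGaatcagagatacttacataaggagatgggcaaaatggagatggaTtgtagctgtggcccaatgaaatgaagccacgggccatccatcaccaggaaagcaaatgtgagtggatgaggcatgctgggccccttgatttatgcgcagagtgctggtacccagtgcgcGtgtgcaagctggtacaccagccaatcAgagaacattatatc
Xlr3c: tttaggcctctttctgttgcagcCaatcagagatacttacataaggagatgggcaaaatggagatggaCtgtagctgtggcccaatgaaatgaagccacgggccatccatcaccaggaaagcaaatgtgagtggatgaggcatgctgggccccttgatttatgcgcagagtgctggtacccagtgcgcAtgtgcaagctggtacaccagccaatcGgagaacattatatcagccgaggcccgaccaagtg
Xlr5a: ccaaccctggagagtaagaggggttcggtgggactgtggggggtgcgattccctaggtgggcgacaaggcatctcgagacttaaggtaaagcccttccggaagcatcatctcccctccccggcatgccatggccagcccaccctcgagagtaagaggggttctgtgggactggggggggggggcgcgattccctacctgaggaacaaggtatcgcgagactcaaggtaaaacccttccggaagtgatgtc
Xlr5b: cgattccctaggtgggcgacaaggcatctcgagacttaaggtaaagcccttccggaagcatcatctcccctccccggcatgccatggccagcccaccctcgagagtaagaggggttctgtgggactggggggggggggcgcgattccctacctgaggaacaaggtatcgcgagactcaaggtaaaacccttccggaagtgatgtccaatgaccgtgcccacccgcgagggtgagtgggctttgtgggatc
The first pair matched at 226 of 230 bases compared (98.3%) and the second at 205 of 205 (100%), each after a shift of 1 window along the other, by 20 and 45 bases. The other 8 pairs matched at 28.7 to 36.6%, among them *Xlr5c* with *Xlr5a* (32.1%) and with *Xlr5b* (35.3%).

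Some zinc finger genes were lower in ΔK9.1 alone, and calls in the group as a whole went both ways. Of the 335 tested genes named Zfp and a number, 22 (6.57%) were called higher and 21 (6.27%) lower than in E14Tg2a, beside 9.96% and 4.88% of all genes, and their median log2 difference was -0.02, beside 0.07 over all genes. In ΔK9.1 alone 1 (0.299%) was higher and 7 (2.09%) were lower, beside 0.951% and 0.752% of all genes. *Zfp640* was at 6.17, 3.71 and 4.84 TPM in ΔK9.1, at 17, 12.9 and 19.2 TPM in E14Tg2a and at 19, 12.9 and 16 TPM in ΔK9.2. *Zfp991* was at 13.8, 6.36 and 7.28 TPM, 25.4, 16.3 and 23 TPM, and 32.3, 19.4 and 29.5 TPM. For both the ΔK9.1 libraries were the lowest and the other lines overlapped. *Zfp951* on chromosome 5 differed by -1.51 from E14Tg2a and by -2.16 from ΔK9.2. Clusters of such genes on 3 chromosomes, chosen after their values were seen, lay low in ΔK9.1. Between 145 and 148 Mb on chromosome 4, where 55 genes were tested, 16 were called lower and 3 higher, and 11 were lower in ΔK9.1 alone. The median log2 difference there was -0.50 in ΔK9.1, beside 0.20 in ΔK9.2. Between 175 and 178 Mb on chromosome 2 the medians were -0.27 and 0.06 over 43 genes, with 8 lower and 0 higher calls, and between 65 and 68 Mb on chromosome 13 they were -0.14 and 0.00 over 68 genes, with 12 lower and 0 higher calls. Many of these genes are near copies of their neighbours, and 31 of the 109 genes lower in ΔK9.1 alone carry a predicted, clone or pseudogene symbol, so which copy the reads belong to is uncertain.

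**Figure D3:**
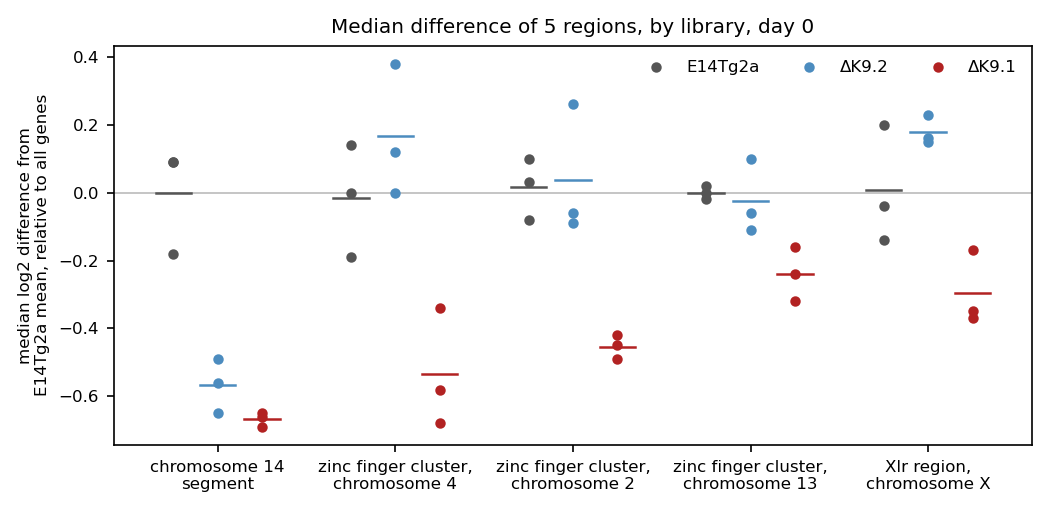
Median log2 difference from the E14Tg2a mean over the genes of a region, relative to all tested genes (vertical axis), for each of the 9 libraries on day 0, with a bar at the mean of each line's 3 medians. On chromosome 14 both clones lie low (-0.69 to -0.49), and in the zinc finger cluster of chromosome 4 only the ΔK9.1 libraries do (-0.68 to -0.34).

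In cholesterol and fatty acid synthesis most of the called genes were higher in ΔK9.1. Of 24 tested genes of cholesterol synthesis and its control, 7 (29.2%) were called higher and 1 (4.17%) lower, beside 9.96% and 4.88% of all genes, 23 lay above 0, and the median log2 difference was 0.33, beside 0.07 over all genes. *Insig1*, a sterol sensor that holds SREBP in the endoplasmic reticulum, rose by 0.77, *Dhcr7*, the last enzyme of the pathway, by 0.77 and *Nsdhl*, which removes methyl groups from the sterol, by 0.68. In the fit without the replicate block none of them differed from ΔK9.2 by the test (limma, adjusted p between 0.08 and 0.17). *Fdft1*, squalene synthase, fell by 0.43 on the log2 scale, and it lies in the chromosome 14 segment. The median of the list was 0.13 in ΔK9.2. Of the 12 genes of fatty acid synthesis, 3 (25%) were higher and none was lower, with a median of 0.25 (0.01 in ΔK9.2). *Scd1* and *Fads2*, the desaturases, were higher in ΔK9.1 alone, *Scd1* at 52.6, 56.4 and 49.7 TPM against 37.8, 34.8 and 34.6 TPM in E14Tg2a and 32.7, 40.6 and 32.8 TPM in ΔK9.2. With the replicate block 15 cholesterol genes and 5 fatty acid genes were higher. Without E14Tg2a replicate 2, without E14Tg2a replicate 3, without ΔK9.1 replicate 1 and without ΔK9.1 replicate 2 the cholesterol count was 3 each time, and without E14Tg2a replicate 1 it was 12.

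Most called lysosomal genes were higher as well. Of 24 tested, 8 (33.3%) were higher and 1 (4.17%) was lower, beside 9.96% and 4.88% of all genes, 21 lay above 0, and the median was 0.42 in ΔK9.1, beside 0.08 in ΔK9.2. *Glb1*, beta-galactosidase, was at 51.8, 53.5 and 49.5 TPM in ΔK9.1, at 30.7, 35 and 28.6 TPM in E14Tg2a and at 38.2, 41.4 and 38.5 TPM in ΔK9.2, so the 3 lines were ordered without overlap. Its log2 difference from E14Tg2a was 0.70 (standard error 0.09, adjusted p = 0.003, limma). *Hexa*, a subunit of beta-hexosaminidase, rose by 0.93, *Gaa*, the acid glucosidase that breaks down glycogen, by 0.80 and *Ctsa*, a protective carboxypeptidase, by 0.78. Without the replicate block no member of the list was among the genes of ΔK9.1 alone. *Ctsb*, cathepsin B, which lies in the chromosome 14 segment, was the member that fell. The count of higher members was 3 without E14Tg2a replicate 2, 2 without E14Tg2a replicate 3, ΔK9.1 replicate 1 or ΔK9.1 replicate 2, and 13 without E14Tg2a replicate 1. After correction for GC content it was 7 with a median of 0.28, and after median-ratio rescaling it was 10.

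All calls in the proteasome and tRNA synthetase lists were lower. In the proteasome list, 7 of 38 tested genes (18.4%) were lower and none was higher, beside 4.88% lower and 9.96% higher of all genes, with a median of -0.20 (-0.03 in ΔK9.2). *Psmc1*, an ATPase of the regulatory particle, was at 164, 165 and 168 TPM in ΔK9.1, at 224, 220 and 229 TPM in E14Tg2a and at 226, 213 and 207 TPM in ΔK9.2, and it was lower in ΔK9.1 alone with a log2 difference of -0.43 from E14Tg2a (standard error 0.06, adjusted p = 0.0037, limma). *Psmb5*, a catalytic subunit with a log2 difference of -0.86, lies in the chromosome 14 segment and was between 114 and 140 TPM in ΔK9.2 against 162 to 261 TPM in E14Tg2a. Of 20 cytosolic tRNA synthetases, 6 (30%) were lower and none was higher, with a median of -0.16 (0.09 in ΔK9.2). *Farsb*, a subunit of the phenylalanine enzyme, was at 77.4, 76.1 and 73.6 TPM, against 113, 118 and 122 TPM in E14Tg2a and 116, 98.6 and 108 TPM in ΔK9.2. In contrast, of 25 targets of the stress factor ATF4, 5 (20%) were higher, among them *Chac1*, which breaks down glutathione (0.83), and *Asns*, asparagine synthetase, was lower in ΔK9.1 alone (-0.33). The ATF4 counts were 1 higher and 2 lower after median-ratio rescaling or GC correction, and the list's median was 0.18 in ΔK9.1, beside 0.25 in ΔK9.2. Mitochondrial ribosomal proteins went both ways, with 13 of 77 higher (16.9%), such as *Mrps2* (0.81) and *Mrpl43* (0.73, ΔK9.1 alone), and 5 lower (6.49%), and after rescaling 6 were higher and 6 lower. Of the lower ones *Mrpl52* and *Mrpl57* lie on chromosome 14. Leaving out single libraries of ΔK9.1 or E14Tg2a gave 3 to 8 lower proteasome genes, 3 to 7 lower tRNA synthetases, 2 to 7 higher ATF4 targets and 6 to 15 higher mitochondrial ribosomal proteins. Of 78 cytosolic ribosomal proteins only *Rpl7* was called, lower by a log2 difference of -0.42.

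Heat shock, p53 and mitosis genes had lower calls more than higher ones. Of 16 heat shock genes, 4 (25%) were lower, beside 4.88% of all genes, and 1, *Bag3*, was higher. *Hspb1*, a small heat shock protein, was at 377, 305 and 296 TPM in ΔK9.1, at 737, 473 and 554 TPM in E14Tg2a and at 695, 505 and 588 TPM in ΔK9.2, with a log2 difference of -0.83 from E14Tg2a (adjusted p = 0.013, limma), and it and the co-chaperone *Stip1* (-0.49) were lower in ΔK9.1 alone. *Hspb8*, another small heat shock protein that is not in the list and was singled out after its values were seen, was higher in ΔK9.1 alone. It was at 72.1, 78.5 and 72.5 TPM against 25.5, 29.8 and 24.9 TPM in E14Tg2a and 33.6, 47.5 and 45.9 TPM in ΔK9.2 (log2 difference from E14Tg2a 1.45, standard error 0.13, adjusted p = 0.001, limma). Its ΔK9.2 libraries also lay above those of E14Tg2a. *Hspb8* lies on chromosome 5 between 110 and 120 Mb, where the medians of both clones lay above that of all genes. Of 19 genes in the p53 list, which holds *Trp53* beside its targets, 6 (31.6%) were lower, *Trp53* among them, and 1 was higher. *Trp53* was at 156, 162 and 130 TPM against 235, 232 and 204 TPM, with 211, 201 and 171 TPM in ΔK9.2. *Perp*, a membrane protein of the p53 response, fell by 1.25 on the log2 scale. Of 20 mitosis genes 5 (25%) were lower and 1 was higher, with *Cdc20*, the activator of the anaphase-promoting complex, lower in ΔK9.1 alone (-0.53) and *Bub1*, a kinase of the spindle checkpoint, higher (0.52). The medians of these lists were -0.16, -0.25 and -0.22 in ΔK9.1 and -0.04, -0.09 and -0.03 in ΔK9.2.

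Transcripts of the replication-dependent histones, most of which end in a stem-loop and not in a poly(A) tail, had lower calls only. Of 47 tested, 15 (31.9%) were lower, beside 4.88% of all genes, none was higher and all 47 lay below 0, with a median of -0.86 in ΔK9.1, beside -0.39 in ΔK9.2. The mean reached 1 TPM for 29 of the 47 in ΔK9.1, for 45 in E14Tg2a and for 44 in ΔK9.2. Members under 1 TPM in ΔK9.1 were tested only because another line was higher, so the count below 0 and the median follow in part from the filter. *Hist3h2a* was at 0.460, 0 and 0.585 TPM in ΔK9.1, at 4.91, 2.49 and 3.93 TPM in E14Tg2a and at 2.68, 1.04 and 1.94 TPM in ΔK9.2. *Hist1h2an* was the member lower in ΔK9.1 alone, at 0, 0 and 0.607 TPM against 3.53, 3.34 and 4.17 TPM, with 4.47, 1.11 and 4.89 TPM in ΔK9.2. These libraries were made from poly-A RNA, and the part that the capture of such transcripts has in the difference was not tested. The genes are near copies of each other, so their single values are uncertain, and the number called lower was 6 without ΔK9.1 replicate 2, 8 without E14Tg2a replicate 3 and 6 among genes with at least 5 TPM.

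In the pluripotency lists the calls went both ways, with 15.4% of the core and 13.3% of the naive genes called in each direction, beside 9.96% higher and 4.88% lower of all genes. Of 13 core genes, *Nanog* and *Sox2* were higher and *Tdgf1* and *Pou5f1* lower (0 higher and 3 lower after median-ratio rescaling), and of 15 naive genes, *Klf2* and *Esrrb* were higher and *Gbx2* and *Klf4* lower. *Klf2*, a Krüppel-like factor of the naive state, was at 268, 253 and 277 TPM in ΔK9.1, at 163, 149 and 141 TPM in E14Tg2a and at 183, 176 and 191 TPM in ΔK9.2. It was higher in ΔK9.1 alone (log2 difference from E14Tg2a 0.81, standard error 0.08, adjusted p = 0.001, limma). Here the 3 lines were ordered without overlap, with ΔK9.2 in between. *Pou5f1* was at 1336, 1264 and 1500 TPM, against 1602, 1631 and 2050 TPM in E14Tg2a and 1674, 1652 and 1865 TPM in ΔK9.2, and its call, like those of *Sox2* and *Esrrb*, was lost after median-ratio rescaling or GC correction. Of 20 genes of the FGF and ERK pathway and its feedback, 5 (25%) were lower and none was higher, beside 4.88% and 9.96% of all genes: *Myc*, *Phlda1*, *Spry2*, *Dusp6* and *Etv4*. *Spry2*, an inhibitor of receptor signalling, was at 28.6, 27.9 and 22 TPM in ΔK9.1, at 52.6, 55.2 and 47.7 TPM in E14Tg2a and at 49.3, 43.5 and 35.6 TPM in ΔK9.2, and was with *Myc* lower in ΔK9.1 alone. *Dusp6*, a phosphatase of ERK, was at 18.9, 21.8 and 16.5 TPM, against 27.7, 38.7 and 28.3 TPM and 26.7, 25.8 and 19.9 TPM. The other 15 genes of the list were not called and its median was -0.05. The replicate block gave 2 higher and 6 lower, and without E14Tg2a replicate 1 there were 3 higher and 3 lower.

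Calls among chromatin genes went both ways. Of 18 genes of H3K9 methylation 3 (16.7%, beside 9.96% of all genes) were called: *Kdm3b* (0.84), a demethylase, *Setdb1* (0.55), a methyltransferase, and *Cbx1* (0.44), a reader of the mark, were higher. None of the 3 differed from ΔK9.2 by the test in the fit without the replicate block. Of 12 genes of DNA methylation and its upkeep, *Trim28* and *Dnmt3a* (16.7%, beside 4.88% of all genes) were lower and none was higher. *Trim28*, the corepressor bound by KRAB zinc finger proteins, was lower in ΔK9.1 alone, at 796, 764 and 821 TPM against 1094, 939 and 962 TPM in E14Tg2a and 1066, 967 and 1058 TPM in ΔK9.2. *Dnmt3a*, a de novo DNA methyltransferase, had a log2 difference of -0.56 from E14Tg2a (adjusted p = 0.043, limma). Of 22 tested imprinted genes 5, or 22.7% beside 4.88% of all genes, were lower (*H19*, *Nnat*, *Zrsr1*, *Rian* and *Mest*) and 2 were higher (*Grb10* and *Igf2r*), with medians of -0.37 in ΔK9.1, beside 0.13 in ΔK9.2. *Zrsr1*, an imprinted splicing factor gene, was at 11.9, 7.62 and 8.98 TPM in ΔK9.1, at 18.5, 19.8 and 18.7 TPM in E14Tg2a and at 19.2, 23.3 and 19.7 TPM in ΔK9.2. *Grb10*, an adaptor that restrains growth signals, was at 55.7, 65.9 and 75.3 TPM against 50.9, 18.5 and 23.5 TPM, and replicate 1 was the highest of the E14Tg2a libraries. The block gave 8 imprinted genes lower and 3 higher.

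Markers of rarer cells were low and uneven between libraries, and their calls are to be read beside 9.96% higher and 4.88% lower of all genes. None of the 8 genes of the two-cell-like state was called by limma, although all 8 lay below 0, with medians of -1.27 in ΔK9.1, beside 0.10 in ΔK9.2 and summed levels between 23.3 and 44.5 TPM in ΔK9.1, between 36.8 and 99.3 TPM in E14Tg2a and between 45.2 and 110 TPM in ΔK9.2. With the replicate block 6 of them were called lower, and in the fit of all 33 libraries 2 were. *Zscan4c*, the marker of that state, had a mean of 1.27 TPM in ΔK9.1, 6.86 TPM in E14Tg2a and 6.83 TPM in ΔK9.2. The mean reached 1 TPM for 4 of the 8 two-cell-like genes in ΔK9.1, for 8 in E14Tg2a and for 7 in ΔK9.2. Those under 1 TPM in ΔK9.1 were tested only through the other lines, so the signs and the median follow in part from the filter. All 16 primitive endoderm markers lay below 0, with medians of -0.94 and -0.47 in the clones, and only *Lamc1*, a laminin chain, was called (lower, 6.25%, and 4 with the block). The mean reached 1 TPM for 8 of these 16 in ΔK9.1, for 16 in E14Tg2a and for 13 in ΔK9.2. The rest were tested only because another line was higher than ΔK9.1, so the signs and the median of this list follow in part from the filter. Without E14Tg2a replicate 1, which held the highest summed level, the median in ΔK9.1 was -0.25. *Gata6*, which specifies that lineage, had a mean of 0.600 TPM in ΔK9.1, 4.93 TPM in E14Tg2a and 2.75 TPM in ΔK9.2. In bulk RNA fewer cells of a type and less RNA per cell cannot be told apart. Of the trophoblast list *Esx1* and *Tfap2c* were higher of 5 tested (40%), with summed levels between 44.1 and 45.9 TPM in ΔK9.1 and between 26.7 and 36.5 TPM in E14Tg2a, and of the neural list *Pax6* was higher of 5 tested (20%). None of the 3 primitive streak and 4 fibroblast markers tested was called, with sums of at most 7.11 and 22.6 TPM in ΔK9.1. Of the germline list, *Hormad1* was lower and *Rpl10l* higher of 14 tested (7.14% each way), and the block gave 6 lower and 1 higher.

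**Figure D4:**
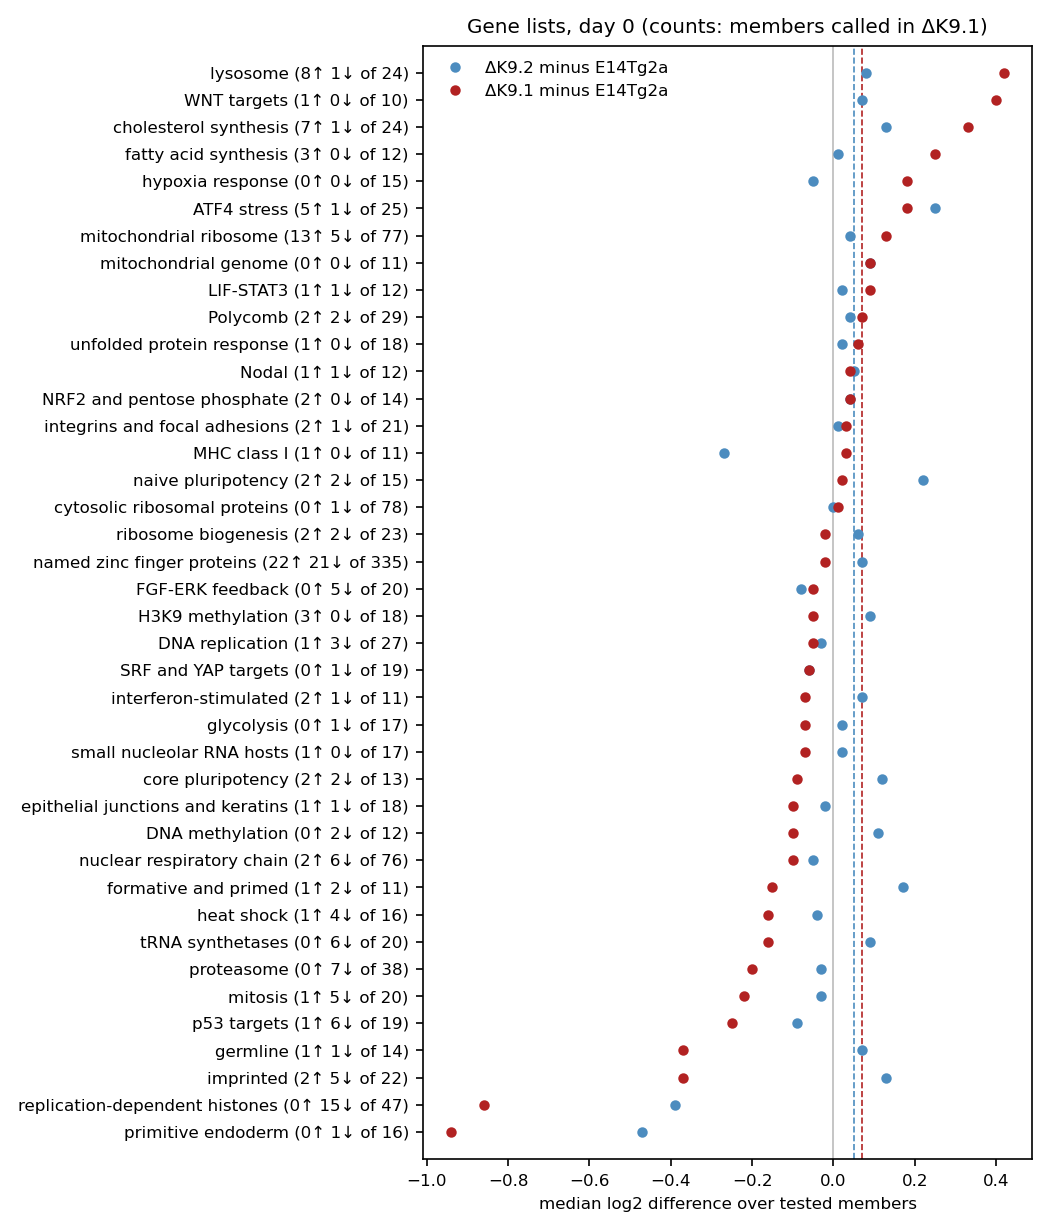
Median log2 difference from E14Tg2a (horizontal axis) over the tested members of each gene list with at least 10 tested members, for ΔK9.1 and ΔK9.2 on day 0, with dashed lines at the median of all tested genes (0.07 and 0.05). The lysosome, WNT target and cholesterol lists lie highest in ΔK9.1 (0.42, 0.40 and 0.33), and the histone and primitive endoderm lists lie lowest (-0.86 and -0.94). Of these lowest lists, 29 of 47 histones and 8 of 16 primitive endoderm markers had a mean of at least 1 TPM in ΔK9.1. Their other members were tested only through the other lines, so these low medians follow in part from the filter.

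Other signalling and growth lists had between 0 and 8 calls each, to be read beside 9.96% higher and 4.88% lower of all genes. Of 12 LIF and STAT3 genes *Pim1*, a survival kinase, was higher (0.69) and *Junb*, an AP-1 factor, lower (-0.65). Of 8 BMP and ID genes 2 were higher (25%) and 1 was lower (12.5%). *Smad6*, an inhibitor of BMP signals, was at 8.06, 7.48 and 6.48 TPM in ΔK9.1, at 3.23, 2.78 and 2.39 TPM in E14Tg2a and at 3.72, 4.30 and 4.45 TPM in ΔK9.2, and rose together with *Id4*, whereas *Id1* fell by 0.83 on the log2 scale. Of 10 WNT targets *Znrf3* was higher, and of 12 Nodal genes *Foxh1* was higher and *Tdgf1* lower. In the formative and primed list (11 tested) *Zic5* was higher (9.09%) and *Dnmt3a* and *Tcf15* were lower (18.2%). Polycomb genes (29 tested) had 2 higher, *Bcor* and *Cbx2*, and 2 lower, *Jarid2* and *Rnf2* (6.90% each way). DNA replication genes (27 tested) had 1 higher (3.70%) and 3 lower (11.1%), of which *Rfc4* was lower in ΔK9.1 alone. Nuclear genes of the respiratory chain (76 tested) had 2 higher (2.63%) and 6 lower (7.89%), and none of the 11 mitochondrial genes tested was called. Ribosome biogenesis (23 tested) had 2 higher and 2 lower (8.70% each way).

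In the remaining lists 0 to 2 members were called in either direction, where the shares of all genes were 9.96% higher and 4.88% lower. *Sel1l* of 18 unfolded protein response genes, *Snhg12* of 17 small nucleolar RNA hosts and *H2-K1* of 11 MHC class I genes were higher. *Gstm1* and *Pgd* (14.3%) were higher of 14 NRF2 and pentose phosphate genes, and *Gstm1*, a glutathione transferase, was at 71.6, 85.2 and 73.5 TPM in ΔK9.1 against 40.1, 40.1 and 26.7 TPM in E14Tg2a and 43, 56.1 and 57.4 TPM in ΔK9.2. *Oasl1* and *Stat2* were higher (18.2%) and *Irf9*, which lies on chromosome 14, lower (9.09%) of 11 interferon-stimulated genes. *Ldha* of 17 glycolysis genes and *Tagln2* of 19 SRF and YAP targets were lower. *Cldn4* was higher and *Pkp2* lower of 18 epithelial junction and keratin genes, and *Pxn* and *Itga6* were higher and *Fermt2* lower of 21 integrin and focal adhesion genes. *Oasl1* and *Pxn* lie on chromosome 5 between 110 and 120 Mb. None of the 15 hypoxia genes was called (median 0.18). *Eif2s3y* was higher of 4 Y chromosome genes (25%), and of the 8 genes around and including *Nanog* only *Nanog* was called.

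The genes of ΔK9.1 alone were followed through embryoid body culture, with 3 libraries of each line on days 4 and 8 and 2, without replicate 1, on day 6. The later libraries had no part in choosing them, but they were fitted together with the day 0 libraries, whose levels and spread did, so the p-values of that fit are not independent of the choice. The set came from the 14504 genes tested on day 0. The shares of all genes on later days are over 16336 genes, some of them under 1 TPM on day 0, so the 2 shares are not over like genes. By limma on all 33 libraries no gene, in the set or outside it, was called against both other lines on days 4, 6 or 8. With the replicate block 4 genes were called lower on day 4, 2 of them in the set, and 5 were called higher on day 8, none of them in the set, and in a fit of each day's own libraries 1 gene outside the set was called higher on day 6. At an unadjusted p under 0.05 against both lines, 21, 28 and 6 of the 138 higher genes stayed higher on days 4, 6 and 8 (15.2, 20.3 and 4.35%), beside 0.955, 1.46 and 1.14% of all 16336 genes. Of the 109 lower genes 16, 4 and 3 stayed lower (14.7, 3.67 and 2.75%), beside 1.30, 0.533 and 0.306%. In the fit of each day's own libraries, which holds no day 0 library, these counts were 28, 24 and 4 of the higher genes (20.3, 17.4 and 2.90%), beside 1.27, 2.08 and 0.661% of all genes, and 15, 7 and 1 of the lower genes (13.8, 6.42 and 0.917%), beside 1.76, 0.943 and 0.275%. Against E14Tg2a only, in the fit of all 33 libraries, 8, 19 and 23 of the higher genes were called higher (5.80, 13.8 and 16.7%), where the shares of all genes were 0.582, 1.06 and 4.51%, and 7, 4 and 6 of the lower genes were called lower (6.42, 3.67 and 5.50%), where the shares were 2.51, 2% and 6.65%. In the fit of each day's own libraries few genes were called at all (6, 1 and 13 higher and 20, 1 and 82 lower of 16336, or 0.502% at most), and none was of the set, so that fit gives no comparison of the set with other genes. With the replicate block 35, 32 and 39 of the higher genes were called (25.4, 23.2 and 28.3%), beside 1.77, 3.49 and 9.21% of all genes, and 21, 11 and 15 of the lower genes (19.3, 10.1 and 13.8%), beside 6.72, 5.45 and 11.7%.

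**Figure D5:**
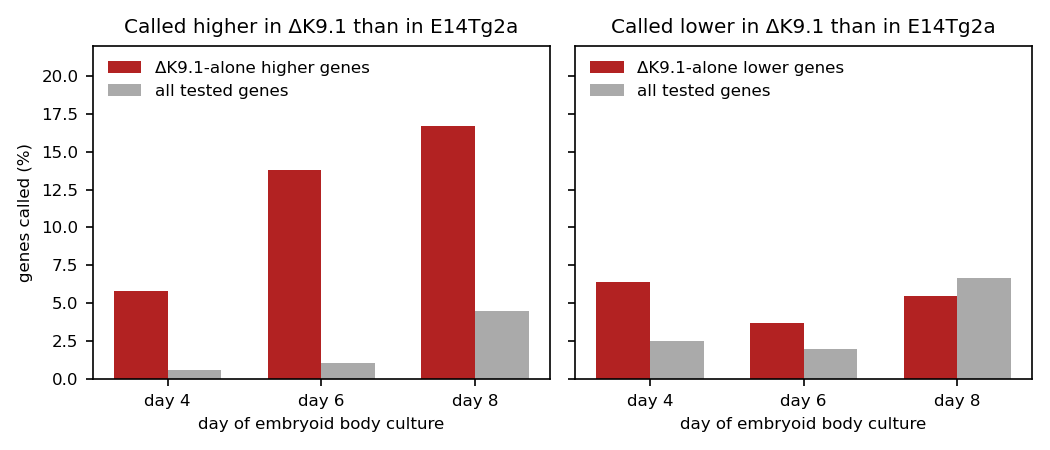
Share of genes (vertical axis, %) called higher (left) or lower (right) in ΔK9.1 than in E14Tg2a on days 4, 6 and 8, for the genes of ΔK9.1 alone on day 0 and for all tested genes (16336), in the fit of all 33 libraries. The higher genes of ΔK9.1 alone reach 16.7% on day 8 beside 4.51% of all genes, whereas the lower ones are at 5.50% beside 6.65%.

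Single genes took different courses. Called against E14Tg2a in the day 0 direction on all 3 later days were *Mrpl43*, *Ssh1* and *Wtap* among the higher genes and *Lmna* and *Zrsr1* among the lower ones, in the fit of all 33 libraries. *Ssh1* lies on chromosome 5 between 110 and 120 Mb, where the day 0 medians of both clones lay above that of all genes. On at least 1 day 32 of the 138 (23.2%) were so called, beside 5.35% of all 16336 genes, and 12 of the 109 (11%), beside 8.83%. *Cbr3* had means of 110, 83.1 and 18 TPM in ΔK9.1 on days 4, 6 and 8, of 39.3, 13.4 and 2.18 TPM in E14Tg2a and of 59.1, 40.9 and 8.83 TPM in ΔK9.2, with an adjusted p against E14Tg2a of 0.097, 0.023 and 0.0041 (limma). *S100a1*, high in ΔK9.1 on day 0, had means of 30.6, 22.1 and 35.9 TPM in ΔK9.1 and of 49.3, 22.8 and 64 TPM in E14Tg2a, with no call on these days. *Myc* had means of 6.64, 19.2 and 38.3 TPM in ΔK9.1 and of 7.63, 35.3 and 29.5 TPM in E14Tg2a, and no difference was called. *Gbx2* was called higher in ΔK9.1 than in E14Tg2a on day 8, with means of 5.14 and 1.07 TPM, a log2 difference of 1.49 (adjusted p = 0.025, limma), and so against its direction on day 0.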

How the data were processed

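RNA of mouse embryonic stem cells (day 0) and embryoid bodies (days 4, 6 and 8) was sequenced in 33 libraries of 3 lines. The authors made stranded poly-A paired-end libraries, aligned reads with STAR to mm10, estimated levels with RSEM, left out libraries that stood apart and deposited TPM values for 16336 genes. Versions and annotation are not given in the sources used here. The study states an approximate read number common to all libraries, but TPM keeps no depth, so the depth and counting error of each are unknown. Columns with the authors' DESeq2 log2 fold changes and FDR were not used, and 0 columns of other samples were present.

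The 9 day 0 libraries were fitted on log2(TPM + 1), the scale of all differences, with limma 3.58.1 in R 4.3.3 (trended empirical Bayes, Benjamini-Hochberg adjustment) over the 14504 genes whose mean reached 1 TPM in any line. A call needed an adjusted p under 0.05 and a difference over 0.3. Later days used a fit of all 33 libraries. Per the study's methods the replicates are 3 independent assays, with the lines run side by side, and p-values measure the spread between assays only. Same-numbered libraries deviated together (9 of 9 pairs with r between 0.127 and 0.284, against -0.268 to -0.023 for 18 other pairs), so the block is printed where it changes a call. For ΔK9.1 against ΔK9.2 it is printed as counts and not for single genes. Genes were placed by symbol with GENCODE M21 (98.4%), and GC content was known for 98.8% of tested genes.

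Named genes are *Nanog*, the 12 largest calls each way against E14Tg2a and the 10 each way in ΔK9.1 alone (not overlapping, at least 5 TPM in the higher group, no predicted, clone or pseudogene symbol), and up to 4 called members of each list with the largest change. Others were named after their values were seen. Members and lists were chosen with earlier results of these data known. The alternatives were pseudocount 0.1, a minimum of 5 TPM or none, median-ratio rescaling, the replicate block, 6 or 33 libraries, a threshold of 0.5, leaving out each library and, added later, GC correction. An item that the rule for named genes includes is not reported here.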

Additional observations from a re-analysis of the deposited data

Results flagged for a closer look

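ΔK9.1 and ΔK9.2 carry the same kind of deletion, and results are given here where the difference between the clones itself passed the test (limma, adjusted p under 0.05 and a log2 difference above 0.3 in size). This held for 145 genes higher and 130 lower in ΔK9.1. The genes of ΔK9.1 alone are here by construction, since their rule asks for this difference.

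Among the named genes the log2 difference of ΔK9.1 from ΔK9.2 was 1.21 for *Kif26a*, 1.25 for *Cbr3*, 1.49 for *Kctd19*, 1.31 for *S100a13*, 1.15 for *A4galt*, 1.42 for *S100a1*, 1.14 for *C1ql1*, 1.13 for *Radil*, 1.08 for *Tmem151a* and 1.05 for *Hey1*. It was 0.57 for *Fads2*, 0.57 for *Scd1*, 0.52 for *Mrpl43* and 0.53 for *Klf2*.

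In the other direction it was -2.64 for *Xlr3c*, -2.63 for *Xlr3b*, -2.16 for *Zfp951*, -1.80 for *Hist1h2an*, -1.57 for *Hormad1*, -1.53 for *Zfp640*, -1.51 for *Zfp991*, -1.27 for *Rnf17*, -1.18 for *Myc*, -1.11 for *Inhbb*, -1.08 for *Emp1*, -1.07 for *Zrsr1* and -1.04 for *Gbx2*. Smaller differences were -0.86 for *Hspb1*, -0.69 for *Spry2*, -0.50 for *Farsb*, -0.43 for *Cdc20*, -0.42 for *Rfc4*, -0.37 for *Trim28*, -0.37 for *Psmc1* and -0.35 for *Stip1*.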

How the results depend on the processing

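With the replicate block ΔK9.1 had 2421 genes higher and 1251 lower than E14Tg2a, ΔK9.2 had 88 and 86, the direct comparison of the clones 865 and 680, and ΔK9.1 alone 738 and 496. On day 4 it called 2 lower genes of ΔK9.1 alone against both lines, where 0 were called without it. It ended the call of none of the 141 named genes other than *Nanog*.

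Median-ratio rescaling gave 1141 lower genes in ΔK9.1, 2 higher in ΔK9.2, 240 lower in the direct comparison and 209 lower in ΔK9.1 alone, and GC correction gave 1108, 2, 209 and 178. A minimum of 5 TPM gave 2 higher and 18 lower genes in ΔK9.2 and a chromosome 14 median of -0.74. With no minimum ΔK9.2 had 2 and 7, the direct comparison 85 lower and ΔK9.1 alone 69 lower. All 33 libraries gave 13 and 31 in ΔK9.2. *Nanog* was not called after rescaling (0.35, adjusted p = 0.06) or with all 33 libraries (0.44, adjusted p = 0.29, limma) and its 0.44 lies under a threshold of 0.5.

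Leaving out 1 library gave 513 to 1922 genes higher and 283 to 730 lower in ΔK9.1, 0 to 48 and 1 to 63 in ΔK9.2, 0 to 267 and 0 to 196 in the direct comparison, and 0 to 242 and 0 to 116 in ΔK9.1 alone. Each of the 141 named genes other than *Nanog* was taken under each setting in which it was tested. Over the settings that keep all day 0 libraries of the lines compared the call was kept in 1088 of these results and lost in 173, of which 33 were at a threshold of 0.5, and with a library left out it was kept in 959 and lost in 310, with no change of direction. The cause of these changes was not tested. TPM values give no depth, so counting error could not be set beside the spread.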
